A study of Rattus norvegicus with 20 samples.

Results

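A set of 9 genes for G protein-coupled receptors and lipid enzymes of the opioid and endocannabinoid systems was followed in the medial prefrontal cortex (mPFC) of rats that had received LSD repeatedly and then been left without the drug. They were found by symbol among the 31038 named genes of the deposited raw counts, where all 9 have an entry: *Cnr1*, *Dagla*, *Daglb*, *Mgll* and *Faah* of the endocannabinoid system, and *Oprm1*, *Oprd1*, *Oprk1* and *Oprl1*, the opioid receptor family. The LSD group held 10 male Sprague-Dawley rats given 0.16 mg/kg of LSD intraperitoneally on alternate days for 90 days, and the saline group 10 male Sprague-Dawley rats given saline on the same schedule. Both groups were housed singly, were described in the sample labels as 6 to 8 weeks old and 180 to 200 g at the start, and were killed after an interval without injections. The labels put that interval at 3 weeks, whereas the methods of the paper give a longer interval and older rats, for both groups alike. Each rat gave 1 library of polyadenylated RNA from the mPFC of a single hemisphere.

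Opioid receptors and the cannabinoid receptor CB1 couple mainly to inhibitory G proteins of the Gi/o class, which lower cyclic AMP, open inwardly rectifying potassium channels and reduce transmitter release. Opioid peptides are cut from precursor proteins and released from vesicles, whereas endocannabinoids are lipids made on demand in the postsynaptic membrane that travel backwards across the synapse to CB1. In the cortex, CB1 is most abundant on the terminals of a class of interneurons that also contain cholecystokinin, and opioid receptors regulate both interneurons and projection neurons.

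Reads on genes numbered 16346629 to 25552681 in the LSD-treated rats (median 20271086) and 11098076 to 24201351 in the controls (median 16815424), so libraries of the LSD group were deeper (exact two-sided rank sum test, p = 0.0147). Excitatory cortical neuron markers were present in every library at 12.8 RPM or more (reads scaled to a common library size with TMM factors). Markers of projection neurons of the striatum, which lies near the mPFC, were also present. The mean log2(RPM + 1) of 6 such markers lay between 5.40 and 6.03 in 4 rats (LSD 9, Saline 2, Saline 8 and Saline 9) and between 3.94 and 4.86 in the other 16, and fits without these 4 rats are given beside the results that move with them. Those fits do not remove the group difference in these markers. Among the other 16 rats, the controls lay at 4.28 or above, and the LSD-treated rats at 4.26 or below except LSD 5 (4.51). Of 6 inhibitory neuron markers, *Gad2* (0.23 on the log2 scale) and *Vip* (0.27) were higher and *Slc32a1* (−0.34) and *Sst* (−0.28) lower in LSD-treated rats (edgeR, Benjamini-Hochberg adjusted p from 0.0180 to 0.0486). The mean log2 levels of the inhibitory, excitatory, claustrum, astrocyte, oligodendrocyte, microglia and endothelium lists gave exact two-sided rank sum p-values from 0.280 to 0.971, and none of the other markers in them was called. In this tissue a lower count can come from fewer cells of a type or from less RNA in each cell, and these cannot be told apart.

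Of the 16605 genes that reached 5 reads in 10 or more libraries, 15% differed between the groups at an adjusted p under 0.05 in edgeR's quasi-likelihood test. Of the 9 genes followed here, 8 were tested and 1 of the 8 passed, which is 12.5% and near the 15% background. The gene that passed was *Oprm1*, which was higher in LSD-treated rats. Without adjustment 3 of 8 (37.5%) had a p under 0.05, compared with 30.8% of all genes tested. The median log2 fold change of the 8 was −0.02, with 4 above and 4 below 0, and the median of all genes was 0.00. The plot of values by rat shows the 9 genes on their own scales. Since no transcript lengths were used, levels are compared between rats for a gene and never between genes.

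**Figure D1:**
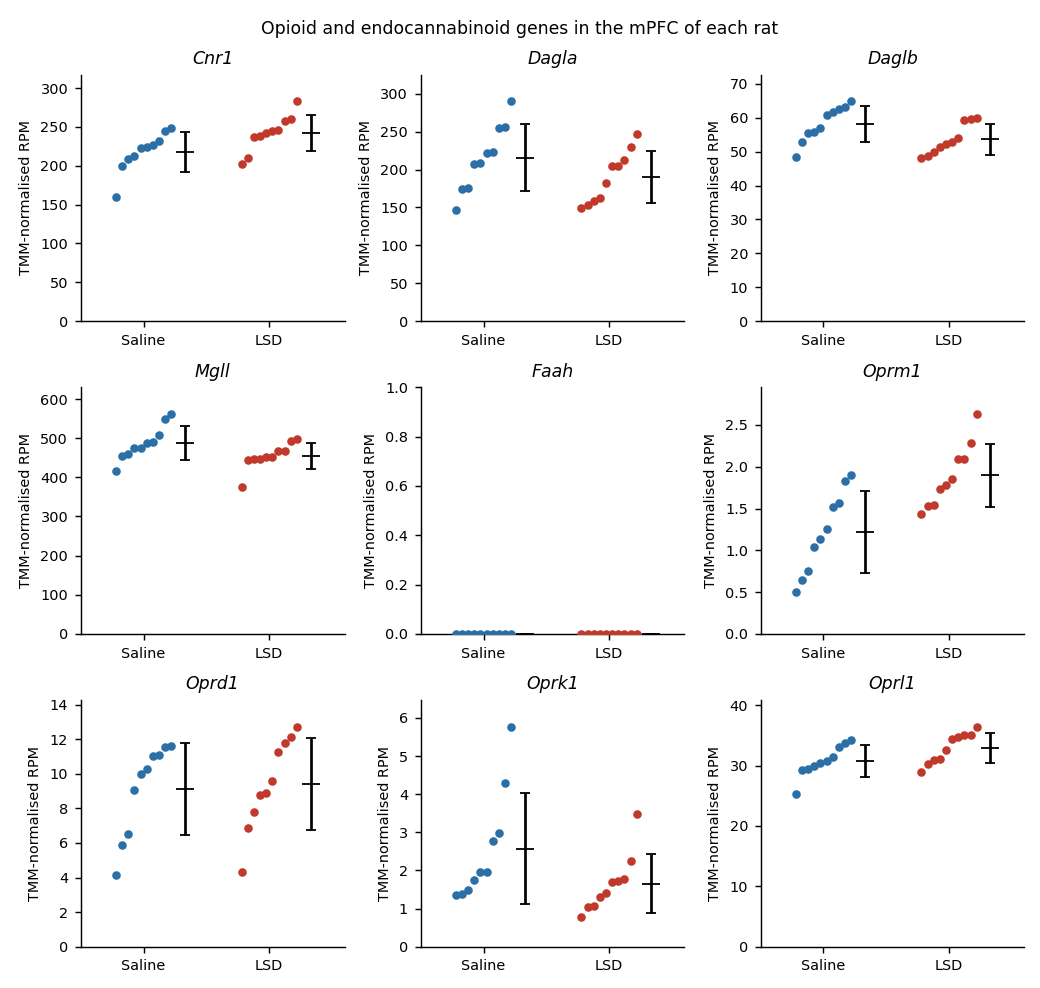
TMM-normalised RPM (y axis, from 0) of each gene in the mPFC of 10 saline-treated (blue) and 10 LSD-treated (red) rats, sorted by value within each group, with the group mean and SD as bars. All 10 LSD-treated rats lie above the saline median of 1.19 RPM for *Oprm1*, the groups overlap for every gene with reads, and *Faah* is at 0 throughout.

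*Oprm1* encodes the µ-opioid receptor, the main target of morphine and of β-endorphin. RefSeq places its start in 2 windows of the GRCr8 assembly, each 300 bases long (250 before and 50 after a start), and these are shown because *Oprm1* is the gene that passed the test. Capitals mark CpG dinucleotides.
Oprm1, chr1:45585733-45586032, plus strand: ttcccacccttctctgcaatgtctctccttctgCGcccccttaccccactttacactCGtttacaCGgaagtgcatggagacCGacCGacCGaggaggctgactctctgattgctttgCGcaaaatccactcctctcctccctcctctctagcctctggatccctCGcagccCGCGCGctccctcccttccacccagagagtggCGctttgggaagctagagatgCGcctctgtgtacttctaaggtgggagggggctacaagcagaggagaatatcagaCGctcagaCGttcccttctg
Oprm1, chr1:45565121-45565420, plus strand: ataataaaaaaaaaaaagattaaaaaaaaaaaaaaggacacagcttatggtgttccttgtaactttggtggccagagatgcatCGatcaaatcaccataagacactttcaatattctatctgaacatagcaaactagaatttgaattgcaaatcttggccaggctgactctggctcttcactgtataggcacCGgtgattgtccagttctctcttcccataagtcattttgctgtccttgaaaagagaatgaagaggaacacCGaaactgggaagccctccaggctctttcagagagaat
The first window has 57.7% G and C with 15 CpG, and the second 39.0% with 3 CpG, compared with medians of 51.7% and 7 over 33469 rat windows. Neither window holds TGACG (the core of the cyclic AMP response element), GGGCGG (a GC box) or TATAAA on either strand, which occur in 21.2%, 33.1% and 14.2% of all windows, respectively. The counts were made on rn6 with an annotation that the sources used here do not name, so it is unknown from which of the starts the counted reads came.

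The level of *Oprm1* ran from 1.43 to 2.63 RPM in LSD-treated rats with a median of 1.82, and from 0.496 to 1.90 RPM in controls with a median of 1.19. All 10 LSD-treated rats lay above the saline median, 4 lay above the highest control, and 6 controls lay below the lowest LSD-treated rat. The groups therefore overlapped, with the lowest values in Saline 4, Saline 5 and Saline 9 and the highest in LSD 6. *Oprm1* rose 1.54-fold, from 1.21 ± 0.489 to 1.90 ± 0.377 RPM (mean ± SD, n = 10 each), a log2 fold change of 0.62 with a standard error of 0.19 and a 95% interval of 0.23 to 1.02 (edgeR quasi-likelihood test, adjusted p = 0.0304 by Benjamini-Hochberg over all genes). An exact rank sum test over the same rats gave an adjusted p of 0.0492, in a test that called 13.9% of all genes, and DESeq2, which called 18.4%, gave 0.0105. These values rest on 7 to 47 reads in each library.

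The direction held in every alternative fit of *Oprm1*, and the call did not. In the edgeR quasi-likelihood test (Benjamini-Hochberg), leaving out 1 rat kept *Oprm1* past the threshold in 14 of 20 cases, with adjusted p-values from 0.0195 to 0.0560 and log2 fold changes from 0.54 to 0.71. The call was lost without LSD 2 (adjusted p = 0.0511), LSD 6 (0.0536), Saline 1 (0.05002), Saline 4 (0.0521), Saline 5 (0.0544) or Saline 9 (0.0560) in that test with Benjamini-Hochberg adjustment. With the striatal marker level as a covariate, which called 13.8% of all genes and 0 of the 8, the log2 fold change was 0.63 and the edgeR adjusted p 0.0588. Without the 4 rats high in striatal markers, where 20.9% of all genes and 0 of the 8 were called, these were 0.57 and 0.0695. Over all alternative fits, the edgeR and DESeq2 adjusted p-values lay between 0.0105 and 0.0774.

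*Oprm1* is also a long gene, and fold changes went with length in these libraries. Its span of 253352 bases, from start to end in GRCr8, is longer than that of 95.4% of the genes tested that have one. Of the 693 genes with a span at least as long, 139 (20.1%) were higher in LSD-treated rats and 8 (1.15%) lower, and their log2 fold changes had a median of 0.12. Among the 89 of them with a mean under 4 RPM, as *Oprm1* has, 2 (2.25%) were higher and 1 lower, with a median of 0.11. *Oprm1* itself is included in both the 693 and the 89, and in both counts of genes that were higher. Of the 7464 genes with a span under the median of 24514 bases, 121 (1.62%) were higher and 1087 (14.6%) lower, with a median of −0.07. Across genes, which are not independent replicates, Spearman's rho between span and log2 fold change was 0.36. After a correction for this trend, under which 10.2% of all genes and 0 of the 8 passed, *Oprm1* stood at 0.52 (edgeR quasi-likelihood test, Benjamini-Hochberg adjusted p = 0.0634). The plot of fold change against span shows *Oprm1* at the long end.

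**Figure D2:**
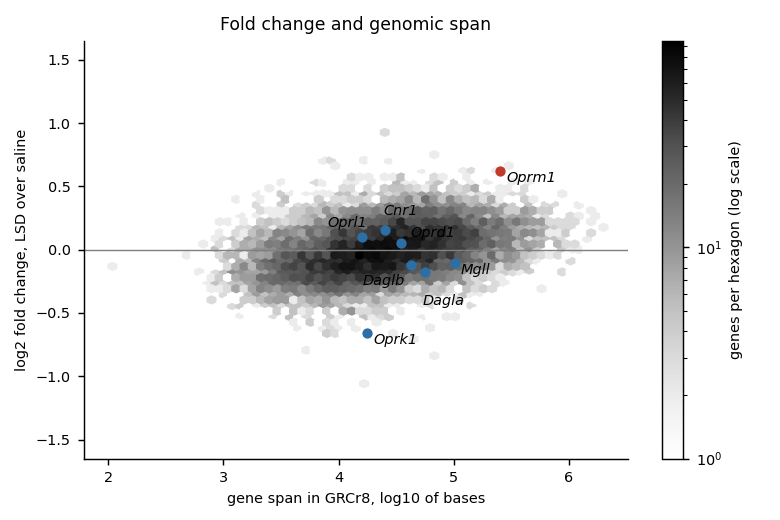
Log2 fold change of LSD over saline (y axis) against gene span in GRCr8 (x axis, log10 of bases), with grey hexagons shaded by the number of genes on a log scale, the gene that passed in red and the other 7 tested genes in blue. *Oprm1* sits at 253352 bases and 0.62, while *Oprk1* sits at 17806 bases and −0.66.

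*Oprk1* encodes the κ-opioid receptor, which is activated by dynorphin peptides. Its level ran from 0.784 to 3.48 RPM in LSD-treated rats with a median of 1.57, and from 1.35 to 5.77 RPM in controls with a median of 1.96. In all, 8 LSD-treated rats lay below the saline median and 4 lay below the lowest control, but the groups overlapped over most of their range. The log2 fold change of −0.66 (standard error 0.28, 95% interval −1.23 to −0.08) was the most negative of the 8 genes, and it did not pass (edgeR quasi-likelihood test, Benjamini-Hochberg adjusted p = 0.109). Each library held 14 to 108 reads for *Oprk1*.

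The 4 highest *Oprk1* values were those of the 4 rats high in striatal markers: 5.77 RPM in Saline 8, 4.31 in Saline 2, 3.48 in LSD 9 and 2.97 in Saline 9. The other 16 rats had 0.784 to 2.78 RPM. With the striatal marker level as a covariate, the log2 fold change of *Oprk1* was −0.00 (edgeR quasi-likelihood test, Benjamini-Hochberg adjusted p = 0.995), and without these 4 rats it was −0.32 (0.264). Single rats moved it as well. Without LSD 9 it was −0.85 and passed (edgeR quasi-likelihood test, Benjamini-Hochberg adjusted p = 0.0374), whereas without Saline 8 it was −0.45 and did not (0.240). With 1 surrogate variable *Oprk1* also passed (−0.81, edgeR, Benjamini-Hochberg adjusted p = 0.0391). All 6 striatal markers had a negative log2 fold change with an unadjusted p under 0.05 (median −0.71). One of them, *Gpr6*, passed (−1.24, edgeR quasi-likelihood test, Benjamini-Hochberg adjusted p = 0.0394), none was at 0 in any rat, and their mean level was 0.56 lower on the log2 scale in LSD-treated rats (3.94 to 5.40 against 4.28 to 6.03, exact two-sided rank sum test, p = 0.00288). Over the 16 rats alone, with group means removed, Pearson's r between *Oprk1* and the striatal marker level was 0.63 (permutation test, adjusted p = 0.0688), and it fell to 0.20 when the 2 rats farthest from the median marker level were left out, so that it rested on those rats. The part of striatal tissue in the *Oprk1* values was not tested beyond these fits.

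**Figure D3:**
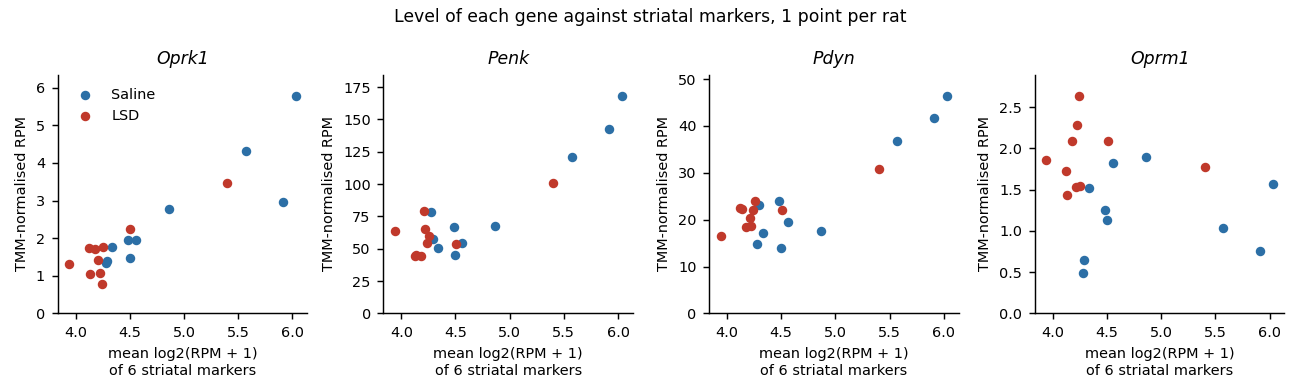
TMM-normalised RPM (y axis) of *Oprk1*, *Penk*, *Pdyn* and *Oprm1* against the mean log2(RPM + 1) of 6 striatal markers (x axis), 1 point per rat, with saline-treated rats in blue and LSD-treated rats in red. The 4 rats with a marker level of 5.40 or more have the highest *Oprk1*, *Penk* and *Pdyn* values, but not the highest *Oprm1* values.

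*Oprd1* encodes the δ-opioid receptor, whose main peptides are the enkephalins. Its RefSeq promoter window is shown for contrast with those of *Oprm1*, since it is among the windows richest in G and C. Capitals again mark CpG dinucleotides.
Oprd1, chr5:149624950-149625249, minus strand: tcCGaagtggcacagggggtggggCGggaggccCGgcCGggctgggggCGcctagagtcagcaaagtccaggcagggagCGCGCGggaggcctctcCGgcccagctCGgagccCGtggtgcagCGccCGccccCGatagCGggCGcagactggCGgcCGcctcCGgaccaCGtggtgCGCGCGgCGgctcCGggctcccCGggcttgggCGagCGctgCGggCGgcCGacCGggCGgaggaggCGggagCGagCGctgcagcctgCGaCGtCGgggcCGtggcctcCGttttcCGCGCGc
This window has 79.0% G and C, more than 98.8% of all windows, with 44 CpG and 4 copies of GGGCGG counted on both strands. Windows were also found for *Mgll* (72.3% G and C), *Faah* (69.7%) and *Daglb* (59.0%), so that 5 of the 9 genes had one.

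*Oprd1* ran from 4.30 to 12.7 RPM with a median of 9.24 in LSD-treated rats and from 4.13 to 11.6 RPM with a median of 10.1 in controls. The groups covered almost the same range, with the lowest values in Saline 9 and LSD 7 and the highest in LSD 6. The log2 fold change was 0.05 (standard error 0.19, 95% interval −0.34 to 0.44; edgeR quasi-likelihood test, Benjamini-Hochberg adjusted p = 0.883), and its sign turned under some of the alternatives. The farthest value from it was 0.30 with 1 surrogate variable (edgeR, Benjamini-Hochberg adjusted p = 0.0831).

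*Oprl1* encodes the nociceptin receptor, which resembles the opioid receptors in sequence but responds to nociceptin instead of the classical opioid peptides. It ran from 29.0 to 36.4 RPM with a median of 33.5 in LSD-treated rats and from 25.3 to 34.3 RPM with a median of 30.5 in controls. In all, 8 LSD-treated rats lay above the saline median and 5 above the highest control, LSD 5 being highest and Saline 9 lowest. The log2 fold change of 0.10 (standard error 0.056, 95% interval −0.02 to 0.21) did not pass (edgeR quasi-likelihood test, Benjamini-Hochberg adjusted p = 0.247). With the striatal marker level as a covariate it was 0.044 (edgeR, Benjamini-Hochberg adjusted p = 0.652). Without the 4 rats high in striatal markers it was 0.082 (0.288 in the same test). The coefficient of variation between rats was 7.67% in the LSD group and 8.56% in the saline group for *Oprl1*, and 46.6% and 56.4% for *Oprk1*.

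*Cnr1* encodes CB1, the receptor for both main endocannabinoids and for tetrahydrocannabinol. Its level ran from 202.8 to 283.5 RPM with a median of 243.9 in LSD-treated rats and from 159.5 to 248.1 RPM with a median of 223.9 in controls. In all, 8 LSD-treated rats lay above the saline median, 3 lay above the highest control, and the extremes were Saline 9 at the bottom and LSD 10 at the top. The log2 fold change was 0.15 (standard error 0.070, 95% interval 0.01 to 0.30), with an unadjusted p of 0.0399 and an adjusted p of 0.141 in the edgeR quasi-likelihood test (Benjamini-Hochberg). Without the 4 rats high in striatal markers it was 0.13 (edgeR, Benjamini-Hochberg adjusted p = 0.0942). With the striatal marker level as a covariate it was 0.06 (adjusted p = 0.592 in the same edgeR test with Benjamini-Hochberg adjustment), and adjusted p-values over the alternatives lay between 0.0631 and 0.592. For cholecystokinin interneurons, the cells richest in CB1, 4 genes were taken as markers (*Cck*, *Npas1*, *Sncg* and *Slc17a8*), none of them called. Their mean was lower by 0.16 on the log2 scale in LSD-treated rats (exact two-sided rank sum test, p = 0.0115). Whether these genes are confined to those interneurons in this tissue was not tested, so the difference cannot be read as fewer such cells. Across the 20 rats Pearson's r between *Cnr1* and these markers was 0.069 (rho = 0.14, permutation test, adjusted p = 0.886 for r).

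*Dagla* and *Daglb* encode the diacylglycerol lipases that make 2-arachidonoylglycerol, the more abundant endocannabinoid of the brain, with *Dagla* the main enzyme at adult synapses. *Dagla* ran from 149.8 to 246.6 RPM with a median of 193.3 in LSD-treated rats and from 146.3 to 290.6 RPM with a median of 215.3 in controls. In all, 8 LSD-treated rats lay below the saline median and 3 controls lay above the highest LSD-treated rat, although the lowest value of all was that of a control. The log2 fold change was −0.18 (standard error 0.11, 95% interval −0.41 to 0.05; edgeR quasi-likelihood test, Benjamini-Hochberg adjusted p = 0.295). *Daglb* ran from 48.0 to 59.9 RPM with a median of 52.6 in LSD-treated rats and from 48.5 to 65.0 RPM with a median of 58.9 in controls, and 5 controls lay above the highest LSD-treated rat. The difference was −0.12 on the log2 scale (standard error 0.058, 95% interval −0.24 to 0.00; edgeR quasi-likelihood test, Benjamini-Hochberg adjusted p = 0.164).

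*Mgll* encodes monoacylglycerol lipase, which hydrolyses 2-arachidonoylglycerol in the presynaptic terminal and ends its signal. It ran from 375.6 to 496.9 RPM with a median of 452.7 in LSD-treated rats and from 416.8 to 562.2 RPM with a median of 481.1 in controls. In all, 8 LSD-treated rats lay below the saline median, and LSD 7 lay well below the rest of its group. The log2 fold change was −0.10 (standard error 0.056, 95% interval −0.22 to 0.01; edgeR quasi-likelihood test, Benjamini-Hochberg adjusted p = 0.224). All 3 enzymes of 2-arachidonoylglycerol with reads thus had negative fold changes that did not pass, and the plot of fold changes sets them beside the receptors. When the span correction and the replicate number were combined in a single fit, 12.6% of all genes passed, and so did all 3. In that fit they stood at −0.24 for *Dagla* (edgeR adjusted p = 0.0336), −0.17 for *Daglb* (0.0261) and −0.18 for *Mgll* (0.0271). Whether the replicate numbers pair the rats is not settled. With 1 surrogate variable, where 17.5% of all genes passed, the 3 moved towards 0, to −0.0095 for *Dagla* (edgeR adjusted p = 0.918), −0.048 for *Daglb* (0.390) and −0.062 for *Mgll* (0.406). Without the 4 rats high in striatal markers they were −0.26 (0.0996), −0.17 (0.0543) and −0.14 (0.0942), respectively.

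**Figure D4:**
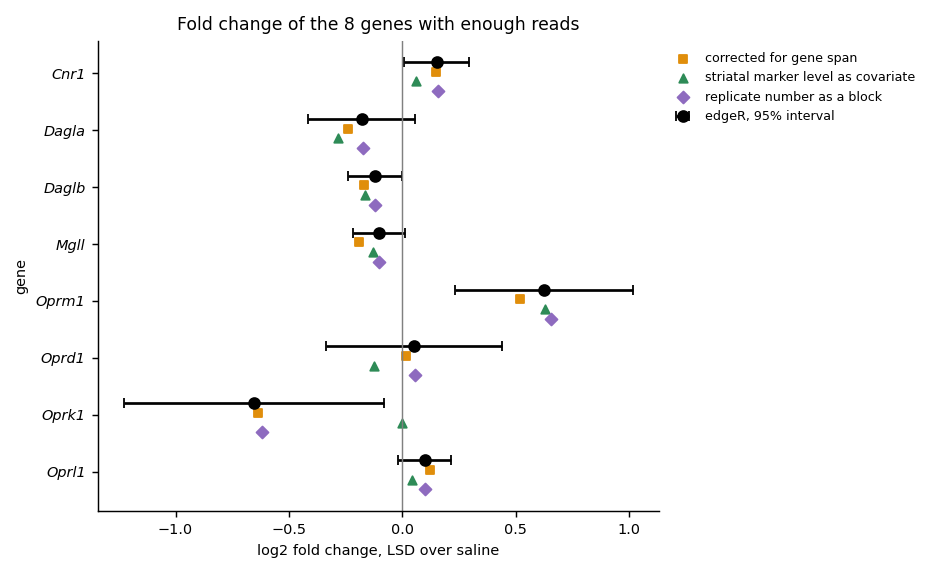
Log2 fold change of LSD over saline (x axis) for the 8 genes with enough reads (y axis), with black points and bars for edgeR's estimate and its 95% interval, and coloured points for the fits corrected for gene span, with the striatal marker level as a covariate and with the replicate number as a block. *Oprm1* lies at 0.52 or more in all 4 fits, while *Oprk1* goes from −0.66 to −0.00 with the striatal covariate.

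*Faah* encodes fatty acid amide hydrolase, which breaks down anandamide, the other main endocannabinoid. It is listed at 0 reads in all 20 libraries, which allows up to 0.270 RPM in the smallest library and 0.117 RPM in the largest (3 counts each, covering counting error only). A separate entry, LOC100911581, carries the number that RefSeq gives as the gene ID of *Faah* (100911581), and it held 4 reads over all libraries, never more than 1 in a library. Its neighbours in GRCr8 were uneven, since *Nsun4* held 2 reads and *Dmbx1* 9 reads over all libraries, while *Uqcrh* held 24057. The 0 of *Faah* cannot be read as absence of the transcript.

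The peptide side of the opioid system was read from the 4 precursor genes, of which 2 were lower in LSD-treated rats and none higher (background 8.54% lower and 6.48% higher; median log2 fold change −0.37 against 0.00 for all genes). *Pnoc*, the precursor of nociceptin, ran from 5.77 to 8.12 RPM with a median of 6.98 in LSD-treated rats and from 7.45 to 10.6 RPM with a median of 8.49 in controls. All 10 LSD-treated rats lay below the saline median and 7 lay below the lowest control, so that the groups overlapped only at the edges. *Pnoc* fell by 0.30 on the log2 scale (standard error 0.078; edgeR quasi-likelihood test, Benjamini-Hochberg adjusted p = 0.0152), and the call held with each rat left out in turn and in 32 of 33 alternative fits (adjusted p from 0.00452 to 0.0820). The exception was the draw of reads down to the smallest library (−0.25, 0.0820).

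*Pomc*, the precursor of β-endorphin, ran from 1.54 to 2.77 RPM with a median of 2.03 in LSD-treated rats and from 1.99 to 3.73 RPM with a median of 2.80 in controls. All 10 LSD-treated rats lay below the saline median and 5 lay below the lowest control. *Pomc* fell by 0.44 on the log2 scale (standard error 0.13; edgeR quasi-likelihood test, Benjamini-Hochberg adjusted p = 0.0319). The call held in 18 of 33 alternative fits (adjusted p up to 0.0945). Leaving out LSD 5, 6, 7 or 8, or Saline 1, 3, 4, 5 or 9, lost it (edgeR adjusted p from 0.0516 to 0.0653). So did the span correction without (−0.37, 0.0682) and with the replicate block (−0.36, 0.0712). The call was also lost with scaling by total counts (−0.39, edgeR adjusted p = 0.0513), no filter on low counts (−0.42, 0.0658) and 1 surrogate variable (−0.39, 0.0526). It did not survive the draw of reads down to the smallest library either.

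*Penk* and *Pdyn*, the precursors of the enkephalins and dynorphins, did not pass. *Penk* ran from 44.5 to 101.2 RPM with a median of 57.1 in LSD-treated rats and from 45.2 to 167.9 RPM with a median of 67.3 in controls (log2 fold change −0.48; edgeR quasi-likelihood test, Benjamini-Hochberg adjusted p = 0.145). *Pdyn* ran from 16.5 to 30.9 RPM with a median of 22.1 and from 13.9 to 46.3 RPM with a median of 21.3, respectively (−0.24, adjusted p = 0.432 in the same edgeR test with Benjamini-Hochberg adjustment). The striatum is rich in both peptides, and the 4 rats high in its markers held the 4 highest values of each, from 101.2 to 167.9 RPM for *Penk* and from 30.9 to 46.3 RPM for *Pdyn*, against maxima of 79.1 and 24.1 RPM in the other 16. With the striatal marker level as a covariate the log2 fold changes were 0.07 for *Penk* (adjusted p = 0.749 in edgeR with Benjamini-Hochberg adjustment) and 0.26 for *Pdyn* (0.113), the opposite sign in each case. Without those 4 rats they were −0.079 for *Penk* (0.685) and 0.16 for *Pdyn* (0.308). With 1 surrogate variable *Penk* passed (−0.69, edgeR, Benjamini-Hochberg adjusted p = 0.0153) and *Pdyn* did not (−0.34, 0.185). Within the other 16 rats, Pearson's r with the marker level was 0.02 for *Penk* and 0.19 for *Pdyn*.

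Beyond the receptors and their peptides, 13 of 47 tested genes of the surrounding pathways passed (27.7%, against 15% of all genes), 7 higher and 6 lower, peptide precursors included, with a median log2 fold change of −0.03. The 15% includes 4666 genes with a mean under 4 RPM, which were seldom called (2.02% higher and 1.46% lower). Most of the pathway genes lay above that level, so the 15% is a low background for them. A share among genes of matched level was not computed. Of the 17 tested genes of endocannabinoid metabolism and CB1 regulation, 4 rose and 3 fell. *Plcb1*, a phospholipase that supplies diacylglycerol, rose from 135.4 ± 20.2 to 172.1 ± 14.5 RPM (log2 fold change 0.35; edgeR quasi-likelihood test, Benjamini-Hochberg adjusted p = 0.00807), and all 10 LSD-treated rats lay above the saline median. Its relative *Plcb4* rose by 0.22 on the log2 scale (0.0190). *Sgip1*, whose product binds CB1 and slows its internalisation, rose by 0.19 (0.0308). *Ptgs2*, the cyclooxygenase that can oxidise endocannabinoids, rose by 0.43 (0.0308). In the opposite direction, *Abhd12*, a lipid hydrolase with a minor part in 2-arachidonoylglycerol breakdown, fell from 236.2 ± 17.9 to 205.5 ± 8.48 RPM (−0.20; edgeR quasi-likelihood test, Benjamini-Hochberg adjusted p = 0.00887), with all 10 LSD-treated rats below the saline median. *Cnrip1*, a CB1-interacting protein, fell by 0.19 on the log2 scale (0.0220), and *Gde1*, a phosphodiesterase on a route to anandamide, fell by 0.16 (0.0323). Genes of other steps did not pass: *Napepld*, the main anandamide-forming enzyme, stood at −0.07 on the log2 scale (adjusted p = 0.557 in edgeR with Benjamini-Hochberg adjustment), *Abhd6* at −0.03 (0.589) and *Cnr2*, the receptor CB2, at 0.08 (0.816).

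Among 11 tested genes that cut, modify or degrade neuropeptides, 1 passed (9.09%, against 15% of all genes). It was *Pcsk1*, the prohormone convertase that makes the first cuts in opioid precursors, which rose from 2.88 ± 0.592 to 3.84 ± 0.595 RPM (log2 fold change 0.42; edgeR quasi-likelihood test, Benjamini-Hochberg adjusted p = 0.0234). Of 15 genes of Gi/o coupling and its effectors, 2 rose and 1 fell (20% called, near the 15% of all genes). *Gnai2*, a Gi alpha subunit, fell from 499.4 ± 43.4 to 422.2 ± 27.1 RPM (−0.24; edgeR quasi-likelihood test, Benjamini-Hochberg adjusted p = 0.00755), while its paralogue *Gnai1* rose by 0.19 on the log2 scale (0.0335) and *Kcnj3*, a subunit of the inwardly rectifying potassium channel GIRK, rose by 0.25 (0.0323). *Abhd12*, *Plcb1* and *Gnai2* passed in all 33 alternative fits. With each of the 20 rats left out in turn, *Gde1* passed in 12 fits, *Sgip1* in 14, *Ptgs2* in 15, *Gnai1* in 11 and *Kcnj3* in 15 (edgeR, Benjamini-Hochberg adjusted p up to 0.0669), and LSD 8 was among the rats without which each of these 5 calls was lost. After the span correction 7 of the 13 still passed, the others being *Pomc*, *Gde1*, *Sgip1*, *Plcb4*, *Gnai1* and *Kcnj3*. With the striatal marker level as a covariate 6 of the 13 still passed, the others being *Pcsk1*, *Gde1*, *Sgip1*, *Ptgs2*, *Plcb4*, *Gnai1* and *Kcnj3*. Without the 4 rats high in striatal markers 9 of the 13 still passed, *Sgip1*, *Gnai1* and *Kcnj3* among them, and the others were *Pcsk1* (0.32, edgeR, Benjamini-Hochberg adjusted p = 0.0675), *Gde1* (−0.13, 0.0965), *Ptgs2* (0.32, 0.0589) and *Plcb4* (0.16, 0.0695).

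Variation between rats of the same group tied some of the genes together. Over 20 rats with group means removed, 4 of 28 pairs passed a permutation test of Pearson's r after adjustment over the pairs. *Dagla* and *Daglb*, the lipases for the same product, varied most closely (r = 0.91, Spearman's rho = 0.92, permutation test, p = 1e-05 for r, the smallest that 100000 permutations can give, and adjusted p = 0.00014; r = 0.87 without the 2 rats farthest from the median of *Dagla*). *Dagla* and *Oprd1* followed (r = 0.80, rho = 0.86, permutation test, adjusted p = 0.00014; r = 0.80 without 2 rats), and then *Daglb* and *Oprd1* (r = 0.71, rho = 0.78, permutation test, adjusted p = 0.00448; r = 0.68 without 2 rats). *Cnr1* and *Oprl1* passed by r (0.65, permutation test, adjusted p = 0.0346) and not by rho (0.48, adjusted p = 0.137), and r fell to 0.26 without the 2 rats farthest from the median of *Cnr1*, so that this relation rested on those rats. *Oprm1*, *Oprk1* and *Mgll* took part in none of the 4 pairs. By rho, however, *Mgll* passed with both *Dagla* (0.64) and *Daglb* (0.63; permutation test, adjusted p = 0.0227 for each rho). By r these pairs fell just short (0.575 and 0.565, permutation test, adjusted p = 0.0532 for each).

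These ties were not particular to opioid and endocannabinoid genes. Of 88 relations between the 8 genes and marker lists, library reads or the first principal component of all genes, 10 passed a permutation test after adjustment. *Dagla*, *Daglb* and *Oprd1* had r = 0.98, 0.89 and 0.85 with that component, which held 27.6% of the variance within groups, and r = −0.79, −0.77 and −0.74 with the reads of the library. They also went with excitatory neuron markers (r = 0.88, 0.88 and 0.67), and 333 genes had an absolute r of at least 0.9 with *Dagla*. *Oprk1* went with oligodendrocyte markers (r = 0.86, rho = 0.89, permutation test, adjusted p = 0.00044; r = 0.87 without 2 rats), markers whose mean level was 0.26 lower on the log2 scale in LSD-treated rats (exact two-sided rank sum test, p = 0.280). Without the 4 rats high in striatal markers, r was 0.72 over the other 16 (rho = 0.76, permutation test, unadjusted p = 0.00191 for r and 8e-04 for rho) and 0.70 without a further 2 rats. The plot of covariation shows the block of *Dagla*, *Daglb* and *Oprd1*, and the tie of *Oprk1* to oligodendrocyte markers.

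**Figure D5:**
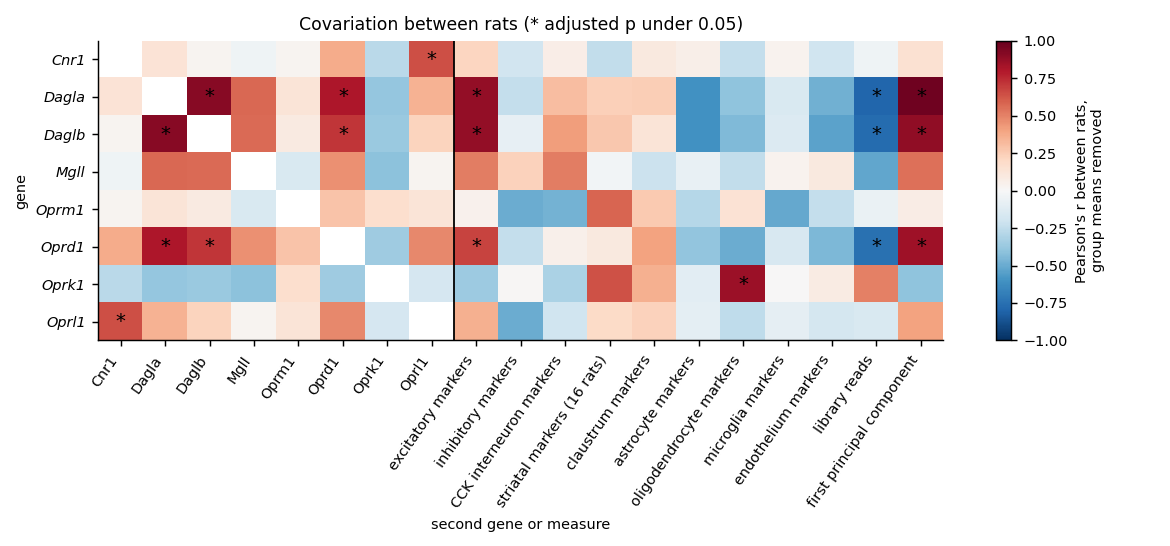
Pearson's r between rats (colour, group means removed) for each of the 8 genes (y axis) against the other genes, 9 marker lists, the reads of the library and the first principal component (x axis), over 20 rats, or 16 for striatal markers, with an asterisk where the permutation test passed after adjustment. The strongest cell off the diagonal among the 8 genes is *Dagla* with *Daglb* at 0.91, and *Oprk1* with oligodendrocyte markers is at 0.86.

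Among 14318 genes with a mean of at least 1 RPM, those most like each gene over the 20 rats were picked by Pearson's r, as a description. Nearest to *Dagla* were *Lrfn1* (0.98), *Kcnc1* (0.97) and *Pip5k1c* (0.97), nearest to *Daglb* were *Nckipsd*, *Tmem175* and *Atg9a* (each 0.94), and nearest to *Oprd1* were *Gpr26* (0.95) and *Nipal3* (0.94). *Oprk1* was most like *Drd1* (0.92), a striatal marker whose level also sets the 4 rats apart, *Map7* (0.90) and *Klk6* (0.88). *Mgll* was most like *Dact3* (0.88), *Ttyh1* (0.87) and *Neurl1* (0.86), and *Cnr1* most like *Pcgf3* (0.87), *Negr1* (0.82) and *Gda* (0.79). Nearest to *Oprl1* were *St6gal2*, *Erc2* and *Prkce* (each 0.80), and nearest to *Oprm1*, the gene with the fewest reads, were *Rcan3* and *Dcp1a* (each 0.78).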

How the data were processed

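The RNA-seq libraries, 1 from the mPFC of each of 20 rats, were grouped by their sample labels into LSD and saline (10 each). Per the labels and the paper, the authors trimmed reads with TrimGalore, aligned them with HISAT2 to rn6 (Rnor_6.0) and used HTSeq-count to count them on genes, and the deposited values are raw counts without normalisation. Versions, gene annotation and strand setting are not given in the sources used here. Without a strand setting, reads of overlapping antisense genes cannot be separated. The counts hold 31038 named genes, 5839 of them without reads, and 5 unnamed entries with 25.5% to 29.0% of the reads of a library, which were left out of all steps. Another 2 entries repeat a date-like name.

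Genes that reached 5 reads in 10 or more libraries (16605) were tested with edgeR 4.0.16 in R 4.3.3 (quasi-likelihood F test, TMM factors, treatment as the only term, Benjamini-Hochberg adjustment over all genes, threshold 0.05). Levels are RPM values, counts scaled to a common library size with TMM factors, and precision is set by the spread between the 10 rats of a group. Standard errors follow from the fold change and F. Tested on simulated data with 10 against 10 rats and 16396 genes, the step called 67 of 99 genes changed by 0.5 on the log2 scale (67.7%) and 86 of 98 changed by 1 (87.8%), with 5 false calls. The simulation changed 200 genes and drew each gene independently. It held no trend with span and no variation shared between genes, so these rates need not hold in the real libraries.

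Alternatives were DESeq2 1.42.0, voom in limma 3.58.1, other scaling and filters, a block for the replicate number, 1 surrogate variable (sva 3.50.0), reads drawn down to 11098076 per library, each rat left out, and offsets for gene span (50 bins smoothed over 5; GRCr8 spans for 89.9% of the genes). Group tests of single measures were exact two-sided rank sum tests over 184756 splits. Correlations used log2(RPM + 1) with group means removed and 100000 permutations of rats within groups, with scipy 1.17.1 and numpy 2.4.6 under Python 3.11.15. Same-numbered rats of the 2 groups had a mean r of 0.145 against −0.0157 for other pairs. This difference was not tested, so a pairing of rats by replicate number is not settled.

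The 9 genes, the pathway and marker lists and the tests were chosen with earlier results of these data known. The genes named are the 9, the 4 opioid precursors, every pathway gene past the threshold, *Napepld*, *Abhd6*, *Cnr2*, called markers, and the 3 genes most like each gene tested, of which some are not reported here. Several choices were made after values had been seen: the striatal covariate, the fit without 4 rats, the groups by span, the promoter windows, the relation of *Oprk1* to oligodendrocyte markers over 16 rats, and the relations to library reads and the first principal component. The relations to striatal markers were planned over 20 rats and run so first, when 12 of 88 relations passed. They were then restricted to the 16 rats that do not stand apart, which left 10. Gene spans, gene positions and promoter windows are those of RefSeq on GRCr8, whereas the counts are on rn6. Levels per transcript length and proteins were not analysed here.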

Additional observations from a re-analysis of the deposited data

Results flagged for a closer look

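In a screen of the 9 genes and the 4 opioid precursors, each group of 10 rats was checked for a lowest or highest rat that stood apart by Dixon's test. Among 24 groups with reads, 2 had such a rat, and chance alone marks about 1 in 20 groups. *Mgll* in LSD 7 was at 375.6 RPM, with the next lowest LSD-treated rat at 443.3 RPM. *Pdyn* in LSD 9 was at 30.91 RPM, with the next highest LSD-treated rat at 23.89 RPM, and LSD 9 was also the LSD-treated rat with the highest level of striatal markers.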

How the results depend on the processing

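Of the 8 genes tested, *Cnr1* and *Oprl1* kept their direction and stayed short of the threshold in all 34 alternatives. *Oprm1* kept its direction in the 33 alternatives that could test it and its call in 23. The number of the 8 past the threshold was 1, but 0 with at least 10 reads in all samples (which drops *Oprm1*), 2 with 1 surrogate variable (*Oprm1* and *Oprk1*), 0 after the span correction, 3 after the span correction with the replicate block, 0 with the striatal covariate, 0 without the 4 rats high in striatal markers, and 0 to 2 with 1 rat left out. *Oprd1* turned to −0.12 with the striatal covariate, to −0.063 without those 4 rats, and to between −0.036 and 0.14 with 1 rat left out, and stood at 0.30 with 1 surrogate variable. The cause was not tested.

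Over all genes, 1076 were higher and 1418 lower. The span correction gave 565 higher, the fit without the 4 rats 1701 higher, scaling by total counts 858 lower with 1504 higher, and no filter 836 lower with 960 higher. Leaving out 1 rat gave 663 to 1669 higher (663 without LSD 8, 705 without Saline 4, 1669 without Saline 2) and 957 to 1907 lower. The 13 pathway genes past the threshold became 7 to 17 (7 without LSD 8, 8 without Saline 4). Correlated pairs numbered 4, and 3 to 6 under the alternatives.

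With a block for the replicate number, 1355 genes were higher and 1606 lower, 1 of the 8 genes passed (*Oprm1*) and 18 pathway genes passed. Same-numbered rats deviated together (r over 0.1) in 6 of 10 pairs, with a mean r of 0.145 against −0.0157 for other pairs, and 1 LSD-treated rat correlated best with its own number.

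The values of *Oprm1* rest on 7 to 47 reads in a library and those of *Oprk1* on 14 to 108, and the size of difference detectable at these counts was not tested.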
